A study of Homo sapiens with 5 samples.

Results

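RNA levels of a set of LIM-domain genes were described in 3 related human renal carcinoma lines. The set was defined by gene symbol: CRIP1, CRIP2, CSRP1, CSRP2, FHL1, FHL2, TGFB1I1 and PXN. All probe sets that the array's annotation assigned to these symbols were taken, where a probe set is a group of short array probes read as 1 value. Of the 8 genes, 7 were matched by 9 probe sets, of 19775 genes and 54675 probe sets in all, and FHL1 is named only. Each of the 7 passed the filter on low values (a log2 signal of at least 6.03 on at least 2 arrays) and reached that value on all 5 arrays, as part of 15024 genes tested. The set was drawn up with earlier results of these arrays known, so the levels of its members are a description and carry no test.

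LM2, labelled as a lung metastatic line of generation 2, had 2 arrays, labelled as biological replicates. LM1, labelled as lung metastatic generation 1, had 1 array. SN12C, the parental renal cell carcinoma line, labelled as non-metastatic, also had 2 arrays of biological replicates. The sources used here give no treatment, do not say how the LM1 and LM2 lines were selected, and do not say whether replicates were separate cultures. The series compared the lines for expression that goes with rising metastatic activity. Total RNA was hybridised to Affymetrix expression arrays, and the deposited values are log2 signals.

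A LIM domain is a zinc-binding fold that acts as a docking surface for other proteins. Small LIM proteins such as CRIP1 and CSRP1 consist of little else, sit along actin filaments or in the nucleus, and have no enzyme activity. Paxillin (PXN) and its close relative Hic-5 (TGFB1I1) carry LIM domains beside binding motifs for adhesion kinases, and scaffold the focal adhesions that join integrins to actin. FHL2 moves between adhesions and the nucleus, where it acts as a cofactor of transcription factors. Many genes of this kind are controlled by serum response factor and its actin-regulated MRTF coactivators, through a DNA element called the CArG box.

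Over all members, CRIP1, CRIP2 and TGFB1I1 stood at least 1 log2 unit higher in LM2 than in SN12C, and the other 4 measured members differed by -0.18 to 0.25. No member was at least 1 log2 unit lower. Over all tested genes 1.72% were at least 1 log2 unit higher in that comparison and 1.26% at least 1 lower. In LM2 against SN12C the arrays did not overlap for 3 members that were higher and 1 that was lower, and overlapped for 3. Over all tested genes 25.3% were higher and 14.1% were lower without overlap. The median member difference was 0.25 log2 units, against 0.03 over all genes tested, and it was 0.06 without SN12C replicate 1 and 0.52 without replicate 2. These shares are given for scale, since the members were drawn from the same contrast.

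In LM1 against SN12C the LM1 value lay above both SN12C arrays for 5 members, below both for 1 and between them for 1. Over all tested genes 45.2% were above and 20.8% below. CRIP1, CSRP2 and TGFB1I1 differed by at least 1 log2 unit, all higher in LM1, where 6.27% of tested genes were at least that much higher and 1.94% at least that much lower. Between the metastatic lines, LM2 was above LM1 for 2 members and below it for 4, with 1 overlap, where 27% and 51.9% of tested genes were. No member stood 1 log2 unit apart between LM2 and LM1, where 1.68% of tested genes were at least that much higher in LM2 and 1.86% lower. Both comparisons with SN12C use the same SN12C arrays.

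**Figure D1:**
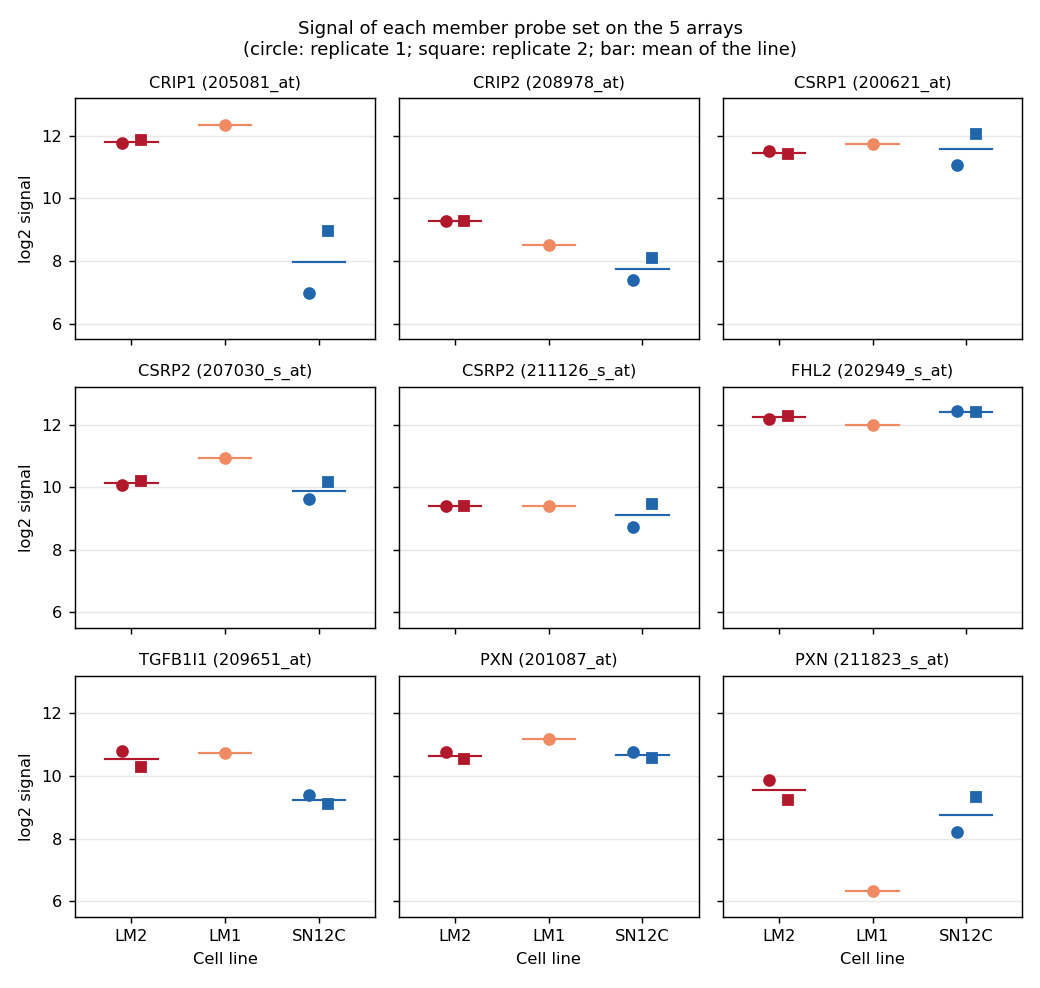
Log2 signal of each of the 9 member probe sets on the 5 arrays, by line (LM2, LM1, SN12C). Circles and squares are replicates and bars are line means. CRIP1 runs from 6.98 to 12.36, while FHL2 stays between 11.97 and 12.43, and the second probe set of PXN (last panel) drops to 6.33 on the LM1 array.

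The arrays were not equal in RNA quality or in spread. The 3' minus 5' difference of the beta-actin control probe sets was 3.43 log2 units on LM1, against 0.07 to 0.47 elsewhere, and that of GAPDH was 2.09, against at most 0.14 elsewhere. Tested genes differed between the SN12C arrays by a median of 0.28 log2 units and between the LM2 arrays by 0.07, and the members by 0.53 and 0.10. On 5.77% of probe sets LM1 and both LM2 arrays carried an identical value. Of 15 renal epithelial and carcinoma markers 10 reached 6.03 on all arrays, and the log2 signals of all 15 summed to 131.87 and 132.14 in LM2, 130.49 in LM1 and 127.90 to 128.16 in SN12C. Among them PAX8, a renal lineage factor, lay between 9.19 and 9.82, KRT19 differed by 2.52 and ANPEP by 1.06 in LM2 minus SN12C, and EMX2, LRP2 and CUBN reached 6.03 on none. Of 10 fibroblast markers 6 reached 6.03 on all arrays, and the log2 signals of all 10 summed to 68.05 and 68.21 in LM2, 67.47 in LM1 and 64.45 to 65.93 in SN12C. COL3A1 alone differed by 3.04 between LM2 and SN12C, and LUM, FAP, POSTN and DPT reached 6.03 on no array. Of 10 smooth muscle markers 8 reached 6.03 on all arrays, and MYOCD and CASQ2 on no array. All 10 summed to 71.29 to 71.60 in LM2, 71.98 in LM1 and 72.44 to 74.80 in SN12C. Of 8 leukocyte markers 4 reached it on all arrays, and PTPRC, CD163, LYZ and TYROBP on none. All 8 summed to 49.22 to 49.28 in LM2, 49.28 in LM1 and 49.60 to 49.78 in SN12C. Of 10 endothelial markers 5 reached it on all arrays, and CDH5, EMCN and ERG on none. Of 6 tested, 2 were higher and 4 lower in LM2 than in SN12C. Among the lower ones KDR was 5.53 and 5.51 in LM2, 5.77 in LM1, and 7.10 and 6.79 in SN12C. Its difference was -1.42 in LM2 minus SN12C. All 10 summed to 61.27 to 61.50, 62.88 and 62.98 to 65.29 in the same lines. The part of any of these in the members' differences was not tested, and in RNA of whole cultures fewer cells of a kind and less RNA per cell cannot be told apart. The value 6.03 lay below the median of every array (6.51 to 6.57), so reaching it does not by itself show that a marker was expressed.

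CRIP1 encodes cysteine-rich intestinal protein, a very small LIM protein first known from gut epithelium. Its signal was 11.75 and 11.86 in LM2, 12.36 in LM1, and 6.98 and 8.95 in SN12C. All 3 arrays of the metastatic lines were high and both SN12C arrays were low, with a gap of 2.80 log2 units between the nearest arrays of LM2 and SN12C. The difference of line means was 3.84 ± 0.77 (SE from the fit, 5 arrays) for LM2 against SN12C, a 14.3-fold ratio, and 4.39 ± 0.94 for LM1 against SN12C. LM1 stood slightly above LM2 (LM2 minus LM1 -0.55), a difference smaller than the 1.97 between the SN12C arrays. That spread makes the size of the CRIP1 difference depend on the SN12C array. LM2 stood 4.82 above SN12C replicate 1 and 2.86 above replicate 2, and LM1 stood 5.38 and 3.41 above them. CRIP1 was read by 1 probe set, and 99.98% of tested genes had a smaller signed difference between LM2 and SN12C.

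CRIP2, a closely related LIM protein known from heart and vascular cells, followed a graded order. Its signal was 9.27 on both LM2 arrays, 8.53 in LM1, and 7.41 and 8.09 in SN12C. LM2 was highest, LM1 lay between, and no 2 lines overlapped. The difference was 1.53 ± 0.27 log2 units for LM2 against SN12C, 0.78 ± 0.34 for LM1 against SN12C and 0.75 ± 0.34 for LM2 against LM1. As for CRIP1, SN12C replicate 1 was the lower of the SN12C arrays. LM2 stood 1.87 above replicate 1 and 1.19 above replicate 2, while LM1 stood 1.12 and 0.44 above them, and the SN12C arrays were 0.68 apart. CRIP2 was also read by 1 probe set. The middle place of LM1 rests on 1 array, the one with the large 3' to 5' difference of beta-actin and GAPDH.

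**Figure D2:**
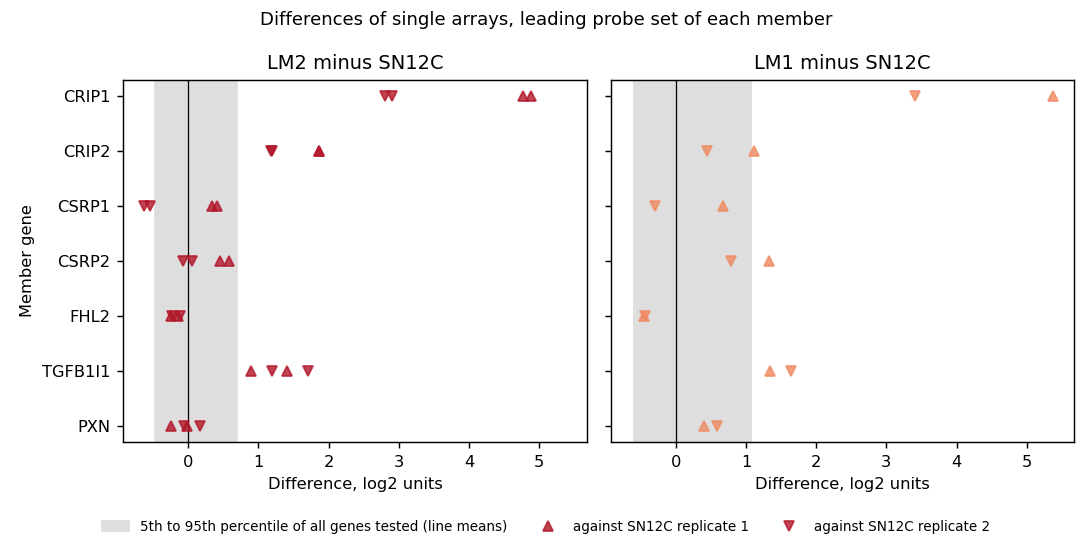
Differences of single arrays for the leading probe set of each member, LM2 minus SN12C on the left and LM1 minus SN12C on the right, in log2 units. Upward triangles are against SN12C replicate 1 and downward ones against replicate 2, and the grey band spans the 5th to 95th percentile of all tested genes (-0.47 to 0.69 and -0.59 to 1.08). CRIP1 lies between 2.80 and 4.88 in LM2, and CRIP2 and TGFB1I1 also lie right of the band there with every array pair.

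CRIP2 and CRIP1 are neighbours on chromosome 14, with no other tested gene annotated between them. The 250 bases before 1 annotated start site of each are shown because both genes were higher in LM2 and LM1. Sequences and coordinates are from RefSeq (GRCh38.p14), 5' to 3' on the gene's strand, and capitals mark GGGCGG on either strand, the letters of a GC box, a common promoter element bound by SP1.
CRIP1, chr14:105486636-105486885, plus strand: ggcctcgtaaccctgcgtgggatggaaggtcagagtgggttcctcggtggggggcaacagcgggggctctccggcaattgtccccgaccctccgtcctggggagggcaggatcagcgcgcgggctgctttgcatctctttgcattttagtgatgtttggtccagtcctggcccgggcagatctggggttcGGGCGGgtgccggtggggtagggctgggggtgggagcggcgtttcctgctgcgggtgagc
CRIP2, chr14:105474571-105474820, plus strand: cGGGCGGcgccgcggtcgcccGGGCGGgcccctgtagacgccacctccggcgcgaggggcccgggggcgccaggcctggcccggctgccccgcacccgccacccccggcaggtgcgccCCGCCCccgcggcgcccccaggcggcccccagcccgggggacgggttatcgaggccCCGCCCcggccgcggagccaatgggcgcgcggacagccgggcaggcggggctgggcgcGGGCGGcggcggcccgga
The CRIP1 stretch held 1 match, 60 bases before the start site, and the CRIP2 stretch held 5. CRIP1 has 1 annotated window (250 bases before to 50 after a start site) and CRIP2 has 4, and the CRIP2 window shown was picked after its matches were seen. GGGCGG was in 45% of 35114 windows of all genes. The CRIP2 window shown had 50 CpG dinucleotides and the CRIP1 window 20, against a median of 14 over all windows. Its other windows had 6, 14 and 3.

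Between LM2 and SN12C the tested genes around the CRIP pair differed less than CRIP2 or CRIP1. In the annotated order, PACS2 (LM2 minus SN12C -0.21 log2 units), TEX22 (-0.03) and MTA1 (0.52) came before CRIP2, and TEDC1 (0.46), TMEM121 (0.84) and the immunoglobulin heavy chain entry IGH (0.07) after CRIP1. MTA1, a subunit of a chromatin remodelling complex, was 10.28 and 9.97 in LM2, 10.37 in LM1, and 9.58 and 9.63 in SN12C. TMEM121, a membrane protein, was 7.11 and 6.90 in LM2, 7.81 in LM1, and 5.75 and 6.57 in SN12C. For MTA1, TEDC1 and TMEM121 the LM2 and the LM1 arrays lay above both SN12C arrays, as for the CRIP genes. Over all tested genes 25.3% did so in LM2 and 45.2% in LM1. For TEDC1 the lower LM2 array, at 8.88, was close to SN12C replicate 2 at 8.82. TMEM121 lay below 6.03 on SN12C replicate 1. In LM1 minus SN12C these 3 neighbours stood near or above CRIP2, with 1.65 for TMEM121, 0.76 for MTA1 and 0.72 for TEDC1 beside 0.78 for CRIP2 and 4.39 for CRIP1. None of these passed limma with Benjamini-Hochberg adjustment over all genes (adjusted p = 0.375 for MTA1, 0.631 for TEDC1 and 0.492 for TMEM121 in LM2 against SN12C). LM2 stood 0.54 above SN12C replicate 1 and 0.50 above replicate 2 for MTA1, 0.78 and 0.13 for TEDC1, and 1.25 and 0.44 for TMEM121.

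**Figure D3:**
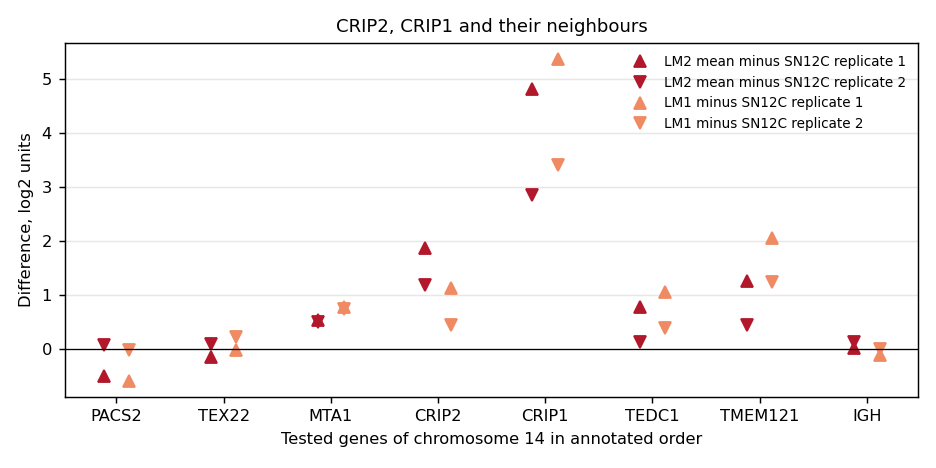
Differences in log2 units, LM2 mean minus each SN12C array and LM1 minus each SN12C array, for tested genes around CRIP2 and CRIP1 on chromosome 14, in annotated order and not to scale. CRIP1 stands at 2.86 and above for every point, while PACS2 lies at -0.50 and 0.07 for LM2 against the SN12C replicates, and LM1 minus SN12C replicate 1 exceeds LM2 minus replicate 1 for TMEM121.

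TGFB1I1 encodes Hic-5, the paxillin relative that is induced by TGF-beta and hydrogen peroxide and that can also act as a nuclear receptor cofactor. Its signal was 10.81 and 10.30 in LM2, 10.74 in LM1, and 9.39 and 9.10 in SN12C. All 3 arrays of the metastatic lines lay above both SN12C arrays, and LM1 fell between the LM2 arrays. The difference was 1.31 ± 0.24 log2 units for LM2 against SN12C and 1.49 ± 0.30 for LM1 against SN12C. Here SN12C replicate 1 was the higher of the SN12C arrays, the reverse of CRIP1 and CRIP2. LM2 stood 1.16 above replicate 1 and 1.46 above replicate 2. LM2 and LM1 differed by -0.19 ± 0.30, less than the 0.51 between the LM2 arrays. The 6 tested neighbours of TGFB1I1 on chromosome 16 ranged from -0.18 to 0.75 in LM2 minus SN12C, the highest being RUSF1 at 0.75 (limma adjusted p = 0.225).

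PXN, the gene of paxillin itself, showed no such separation of LM2 from SN12C. The leading probe set of PXN, the one with the highest mean, was 10.76 and 10.53 in LM2, 11.17 in LM1, and 10.77 and 10.59 in SN12C. LM2 and SN12C overlapped at a difference of -0.04 ± 0.14, and LM1 was the highest array at 0.49 ± 0.17 above SN12C. The second probe set, of a type (_s_at) that can bind several transcripts, was 9.86 and 9.22 in LM2, 6.33 in LM1, and 8.22 and 9.31 in SN12C. On it LM1 was the lowest array, with an LM1 minus SN12C difference of -2.44, so the probe sets of PXN opposed each other in LM1, while LM2 stood 0.77 above SN12C with overlap. The LM1 array is the one with the large 3' to 5' difference in beta-actin and GAPDH. Across 12709 pairs of a gene's leading and other probe sets, 25.2% differed by at least 1 log2 unit in LM1 minus SN12C and 1.9% in LM2 minus SN12C. For PXN the second minus the leading probe set was -2.93 in LM1 minus SN12C, and 1.65% of pairs were at least that far apart. The part of RNA quality in the PXN difference was not tested. An antisense gene, PXN-AS1, neighbours PXN and differed by 0.22 in LM2 minus SN12C and by 0.76 in LM1 minus SN12C.

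CSRP1 and CSRP2 encode cysteine- and glycine-rich proteins that bind alpha-actinin and zyxin on actin bundles. CSRP1 was 11.50 and 11.42 in LM2, 11.75 in LM1, and 11.08 and 12.05 in SN12C. The SN12C arrays, 0.97 apart, enclosed the 3 others, and the differences were -0.10 ± 0.38 for LM2 and 0.19 ± 0.47 for LM1 against SN12C. The sign of both turned with the SN12C array, LM2 differing by 0.38 from replicate 1 and by -0.59 from replicate 2. No order of the lines beyond the spread of SN12C was seen for CSRP1.

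CSRP2 was highest in LM1 on its leading probe set only. Its leading probe set was 10.07 and 10.20 in LM2, 10.94 in LM1, and 9.62 and 10.15 in SN12C. LM1 stood 1.06 ± 0.27 above SN12C and LM2 minus LM1 was -0.81 ± 0.27, while LM2 and SN12C overlapped at 0.25 ± 0.22. The second CSRP2 probe set gave 9.40 on LM1 and on both LM2 arrays, with 8.73 and 9.48 in SN12C. It therefore showed no LM1 peak, and LM1 stood 0.30 above SN12C with overlap. This probe set is among the 5.77% with an identical value on LM1 and both LM2 arrays. How these ties arose is not known, and which of the CSRP2 probe sets reads the gene better was not tested. The second minus the leading probe set was -0.76 in LM1 minus SN12C, where the median gap between a gene's probe sets was 0.49. Both CSRP2 probe sets are of the _s_at type. The LM1 value of CSRP2 rests on its leading probe set and on 1 array, the one with the large 3' to 5' difference in beta-actin and GAPDH.

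FHL2, a cofactor that binds integrins, beta-catenin and the androgen receptor, ran the other way at a small size. Its signal was 12.18 and 12.28 in LM2, 11.97 in LM1, and 12.43 and 12.40 in SN12C. SN12C was highest, LM2 lay between and LM1 was lowest, with no overlap between lines. The difference was -0.18 ± 0.08 log2 units for LM2 and -0.44 ± 0.10 for LM1 against SN12C. Each lay within the 5th to 95th percentile of all tested genes (-0.47 to 0.69 for LM2 and -0.59 to 1.08 for LM1). The lowest place of LM1 rests on 1 array, the one with the large 3' to 5' difference of beta-actin and GAPDH. The FHL2 values of the SN12C arrays were 0.02 apart, less than for any other measured member. FHL2 was read by 1 probe set, of the _s_at type, and its 6 tested neighbours on chromosome 2 ranged from -0.26 to 0.03 in LM2 minus SN12C.

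The annotated promoters of the members were searched for 6 motifs on both strands in the RefSeq windows, which all 8 members had, 31 in all. The CArG box was in 5 windows of 3 members, FHL1, FHL2 and TGFB1I1, at 4 distinct places, since 2 overlapping FHL2 windows share 1. It was in 1.29% of all windows, and 1.6% of 27303 genes had it in at least 1. FHL1 has 12 windows, FHL2 4 and TGFB1I1 3, where the median gene has 1, so these members had more chances to match. GGGCGG was in 12 member windows, GGAATG (the letters of a TEAD site) in 5 against 14% of all windows, and CAGACA (the letters of a SMAD site) in 4 against 16.9%. TATAAA was in 6 against 11.5% and TGANTCA (the letters of an AP-1 site) in 2 against 7.71%. No CArG match overlapped another of these motifs. The stretches before 1 start site of FHL2 and of TGFB1I1 are shown because both hold the box, in capitals, while the signals of the genes differed in opposite directions, and they were picked after the matches were seen.
FHL2, chr2:105399052-105399301, minus strand: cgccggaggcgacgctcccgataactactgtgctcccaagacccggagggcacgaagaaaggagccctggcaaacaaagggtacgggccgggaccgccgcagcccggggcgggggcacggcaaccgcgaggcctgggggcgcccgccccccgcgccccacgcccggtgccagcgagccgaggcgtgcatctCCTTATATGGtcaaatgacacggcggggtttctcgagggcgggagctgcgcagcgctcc
TGFB1I1, chr16:31472955-31473204, plus strand: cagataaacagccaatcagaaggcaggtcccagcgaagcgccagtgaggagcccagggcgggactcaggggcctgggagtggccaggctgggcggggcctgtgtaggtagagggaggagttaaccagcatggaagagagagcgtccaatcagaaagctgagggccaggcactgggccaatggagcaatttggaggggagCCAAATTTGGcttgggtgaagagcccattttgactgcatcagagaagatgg
The box began 59 bases before the FHL2 start site and 51 bases before that of TGFB1I1. No match was found in the windows of CRIP1, CRIP2, CSRP1, CSRP2 and PXN, which says only that these letters are not in those windows.

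The members did not share 1 pattern over the arrays. After each gene's own mean was removed, the Euclidean distance over the 5 log2 values was 3.32 between CRIP1 and CRIP2, which was the smallest for CRIP1 with any member, and 1.10 between CRIP2 and TGFB1I1. CSRP2 and PXN lay 0.74 apart, CSRP1 and CSRP2 0.79, and FHL2 and PXN 0.83. Among all tested genes that are no member, those nearest to CRIP1 were TMEM200C at 0.60, CALD1 at 0.83 and FAM133A at 1.39. CALD1, the actin- and tropomyosin-binding protein caldesmon, read here by the brightest of 11 probe sets, was 9.17 and 9.25 in LM2, 9.52 in LM1, and 5.18 and 6.16 in SN12C. Like CRIP1 it was lowest on SN12C replicate 1 and highest in LM1. TMEM200C lay below 6.03 on both SN12C arrays, at 4.71 and 5.95.

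Nearest to CRIP2 were NOS3, endothelial nitric oxide synthase, at 0.28, the histone gene H2BC12 at 0.28 and LRRN4 at 0.33. NOS3 was 8.42 and 8.12 in LM2, 7.69 in LM1, and 6.60 and 7.14 in SN12C, the graded order seen for CRIP2. Nearest to TGFB1I1 were ANPEP, the renal brush-border aminopeptidase, at 0.30, the collagen chain gene COL6A2 at 0.30 and the homeobox gene MKX at 0.33. MKX was 10.68 and 10.53 in LM2, 10.78 in LM1, and 9.49 and 9.38 in SN12C. The nearest genes of the other members were PFDN2 at 0.04 from FHL2, ZNF605 at 0.05 from CSRP2, ZNF579 at 0.06 from PXN and PIGG at 0.09 from CSRP1. The measure takes in 5 arrays of 3 lines, so genes with the same line order lie close, and nearness is given as a description.

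**Figure D4:**
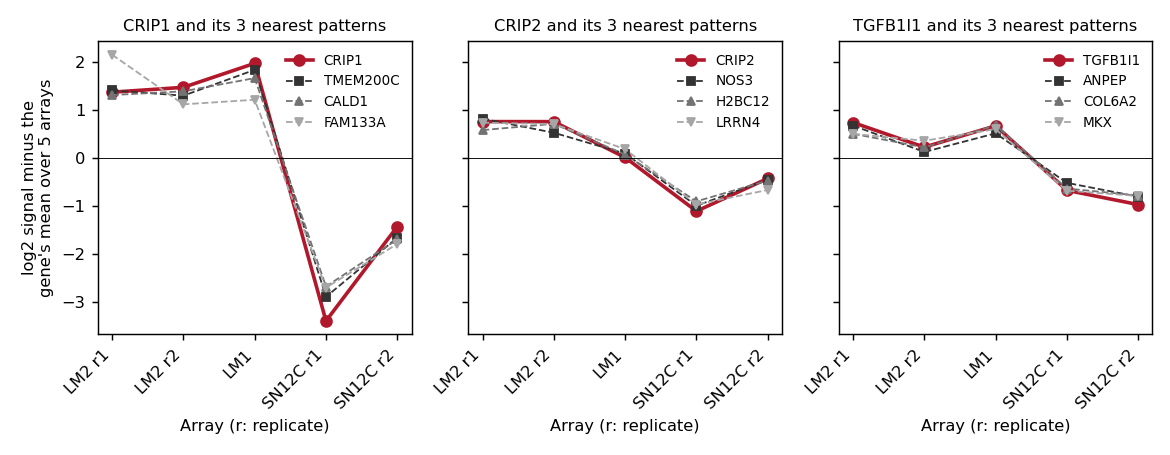
Log2 signal minus the gene's mean over the 5 arrays, for CRIP1, CRIP2 and TGFB1I1 (red) and the 3 nearest genes of each (grey, dashed), by array from LM2 to SN12C. Lines join arrays to show the pattern only. CRIP1 and its nearest genes span over 4 log2 units, and TGFB1I1 and its nearest genes stay within 1 of their means.

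Related genes were read from lists drawn up with earlier results of these arrays known. With limma, 0 of 15024 genes were called at an adjusted p under 0.05, the lowest adjusted p being 0.225 for LM2 against SN12C, 0.0964 for LM1 against SN12C and 0.178 for LM2 against LM1. At an unadjusted p under 0.05 there were 1737, 3325 and 2555 genes, which are 11.6%, 22.1% and 17% of those tested. Of the 160 list genes tested, 0 passed the adjusted threshold in any of the 3 comparisons, and 28, 35 and 31 had an unadjusted p under 0.05. The differences below are therefore values, none of them called.

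Among 21 tested relatives built mainly of LIM domains, 11 were higher and 8 lower in LM2 than in SN12C, with a median of 0.04 log2 units against 0.03 over all genes. TRIP6, a zyxin relative at adhesions, was 10.70 and 10.41 in LM2, 10.48 in LM1, and 9.31 and 9.53 in SN12C, a difference of 1.13 ± 0.16 (limma adjusted p = 0.252). Its arrays separated the metastatic lines from SN12C in the way of TGFB1I1. AJUBA, a LIM protein of cell junctions and Hippo signalling, differed by 0.74, LIMD1 by -0.40 and LMO2 by -0.37. CRIP3, the third CRIP gene, lay between 6.525 and 6.529 on all arrays. Of 20 tested LIM proteins with other domains, 9 were higher and 11 lower (median -0.02). LMO7 differed by 1.01 and MICALL2 by 0.51, while LIMCH1, an activator of non-muscle myosin, differed by -1.94 and ABLIM1, an actin-binding LIM protein, by -1.04. LIMCH1 was 8.77 and 8.86 in LM2, 9.43 in LM1, and 11.37 and 10.14 in SN12C, so that both SN12C arrays lay above all arrays of the metastatic lines.

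**Figure D5:**
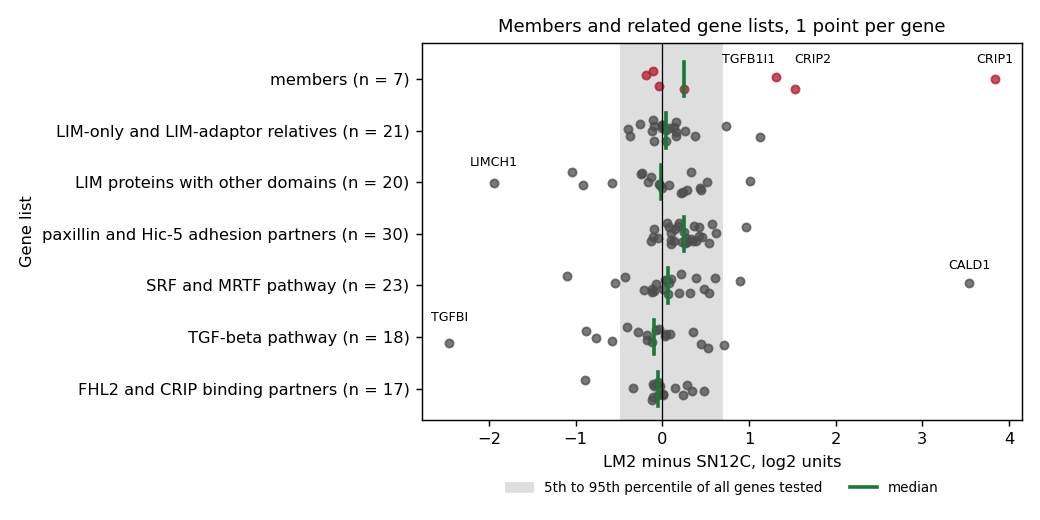
LM2 minus SN12C in log2 units for the 7 measured members (top, red) and for 6 lists of related genes, 1 point per gene, with the median of each list as a green bar and the 5th to 95th percentile of all tested genes in grey. The paxillin and Hic-5 partners have a median of 0.26 and the other 5 lists have medians between -0.10 and 0.07.

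Partners of paxillin and Hic-5 at focal adhesions were mostly a little higher in LM2. Of 30 tested, 26 were higher and 4 lower than in SN12C, with a median of 0.26 log2 units against 0.03 over all genes. For 17 of them (56.7%) both LM2 arrays lay above both SN12C arrays, where 25.3% of all genes did, and for 0 below. The median was 0.31 against SN12C replicate 1 and 0.16 against replicate 2, where all genes had 0.06 and 0.0021. The median of this list was not computed after quantile normalization of the deposited values. That step lowered the median member difference from 0.25 to 0.08, so the part of array scale in the list's median was not tested. PARVA, alpha-parvin, which binds paxillin and integrin-linked kinase, was 10.89 and 10.84 in LM2, 10.74 in LM1, and 9.62 and 10.18 in SN12C. Its difference was 0.97 ± 0.23 (limma adjusted p = 0.343), the highest of the list. ACTN4, an alpha-actinin, differed by 0.62, TNS1, a tensin, by -0.13 and the kinase SRC by -0.11. In LM1, 21 of the 30 were higher and 9 lower, with a median of 0.21, and 15 (50%) lay above both SN12C arrays, where 45.2% of all genes did.

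Genes of the serum response factor pathway were mixed, 15 of 23 higher and 8 lower in LM2 (median 0.07). CALD1, described above, differed by 3.54 ± 0.39 (limma adjusted p = 0.225) and TPM1, a tropomyosin that coats actin filaments, by 0.89. CNN1, calponin, another actin-binding target of the pathway, was 9.61 and 9.48 in LM2, 9.23 in LM1, and 10.76 and 10.54 in SN12C. It was thus lower in both metastatic lines, with a difference of -1.10 ± 0.12 in LM2 (limma adjusted p = 0.225), and JUNB differed by -0.54. In the TGF-beta pathway, 7 of 18 were higher and 11 lower (median -0.10). TGFB2, a ligand, differed by 0.72 and SMAD2 by 0.53. TGFBI, a secreted matrix protein and TGF-beta target, was 8.66 and 8.98 in LM2, 10.17 in LM1, and 12.08 and 10.47 in SN12C, a difference of -2.46 ± 0.64 (limma adjusted p = 0.366). TGFBI and TGFB1I1, both named as TGF-beta-induced, thus differed in opposite directions, and SMAD3 differed by -0.88. Of 17 binding partners of FHL2 and LIM cofactors, 7 were higher and 10 lower (median -0.04), with CREB1 at 0.48, SSBP2 at 0.35, HIPK2 at -0.89 and beta-catenin (CTNNB1) at -0.34.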

How the data were processed

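Per the submitters' processing notes, the arrays were processed with RMA and Partek; versions and a genome build are not given in the sources used here. Each deposited value is a log2 signal of 1 probe set on 1 array. RMA includes quantile normalization, so a difference in overall brightness among arrays cannot be read from the values, which were used as deposited. Their distributions were still not identical. The medians of the arrays lay between 6.51 and 6.57, and the number of arrays limits the precision. SN12C replicate 1 had the narrowest values, with a standard deviation of 2.11, while SN12C replicate 2 had 2.25. It was 2.22 for LM1, and 2.25 and 2.24 for LM2 replicates 1 and 2. Quantile normalization of the deposited values lowered the median member difference in LM2 minus SN12C from 0.25 to 0.08.

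A platform table named the genes: 41091 probe sets had 1 gene, 1801 had several and were not used, 11777 were not listed, and 62 controls were left out. Each gene was read by its probe set with the highest mean, and was kept if its signal was 6.03 or more, the 40th percentile over all values, on at least 2 arrays. Symbols were looked up in RefSeq (GRCh38.p14), used for names, chromosomes and gene order. limma 3.58.1 (lmFit and eBayes, R 4.3.3) fitted 1 mean per line over all 5 arrays, with Benjamini-Hochberg adjustment at 0.05, 2 residual and 1.3 prior degrees of freedom. LM1, with 1 array, is assumed to vary like the other lines. The p-values reflect only how far these arrays spread, which may be technical. For 2 arrays against 2 the smallest two-sided p of an exact permutation test is 0.333, so none was run. The code of the fit was tested on simulated arrays with known changes. These had the same spread in every line, unlike SN12C and LM2 here, so the test does not show how the fit performs on these arrays. Figures were drawn with matplotlib 3.10.9.

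The members and lists were chosen with earlier results of these data known, so members carry no p. Genes named besides members were drawn from the 3 tested genes on each side of a member and the 3 nearest in pattern. From each list of related genes the 2 largest differences on each side were named. That rule was not applied to the cell type marker lists. A few others (CRIP3 and marker genes) were picked after their values were seen. Other settings tried were the low-value filter, how a gene's probe set is picked, normalization, eBayes options, a fit without LM1, a replicate block and leaving out single replicates.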

Additional observations from a re-analysis of the deposited data

How the results depend on the processing

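The differences of CRIP1, CRIP2 and TGFB1I1 kept their sign in LM2 and in LM1 against SN12C under all 10 alternatives run for each, of which the filters and the choice of probe set cannot change these genes, read by 1 probe set each. CRIP1 ranged from 2.86 to 4.82 in LM2 minus SN12C and from 3.41 to 5.38 in LM1 minus SN12C. CRIP2 ranged from 1.19 to 1.87 and from 0.44 to 1.12, its value in LM1 resting on which SN12C array is kept. TGFB1I1 ranged from 1.05 to 1.56 and from 1.35 to 1.64. FHL2 stayed negative in both under all 9 run for it. With the mean of its probe sets PXN was at 0.37 in LM2 minus SN12C, -0.97 in LM1 minus SN12C and 1.34 in LM2 minus LM1, since its second probe set enters. CSRP1 turned sign without SN12C replicate 2 in LM2 minus SN12C (0.38) and without replicate 1 in LM1 minus SN12C (-0.30). In LM2 minus SN12C, PXN also turned positive without SN12C replicate 1 (0.06) and without LM2 replicate 2 (0.08). CSRP2 turned negative there without SN12C replicate 1 (-0.01).

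With _x_at and _s_at probe sets left out, which drops CSRP2 and FHL2, the median member difference was 1.31 in LM2 minus SN12C, over 5 members. It was 0.08 with quantile normalization of the deposited values and 0.37 with the mean of a gene's probe sets. Leaving out 1 replicate at a time, the median member difference ranged from 0.06 without SN12C replicate 1 to 0.52 without SN12C replicate 2 in LM2 minus SN12C, from 0.59 to 1.12 in LM1 minus SN12C and from -0.44 to -0.25 in LM2 minus LM1. Genes called by limma ranged from 0 to 3840 for LM2 minus SN12C, 0 to 4863 for LM1 minus SN12C and 0 to 1433 for LM2 minus LM1 (list genes 0 to 39, 0 to 41 and 0 to 9). The calls appeared without an SN12C array, where the spread comes from the LM2 arrays alone. Without SN12C replicate 1 the counts were 0, 2030 and 1421, and without replicate 2 they were 3840, 4863 and 1433. With the replicate number as a block, over LM2 and SN12C arrays, 0 genes were called (lowest adjusted p = 0.47). Across tested genes, the deviations of replicate 1 from its line mean correlated at 0.092 between SN12C and LM2. The replicate numbers are thus not shown to pair the arrays.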

Other observations

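KRT19, a keratin of simple and ductal epithelia, was 11.76 and 11.74 in LM2, 12.01 in LM1, and 8.92 and 9.54 in SN12C. Like CRIP1, KRT19 was lowest on SN12C replicate 1 and highest in LM1. Its difference was 2.52 ± 0.25 in LM2 against SN12C (limma adjusted p = 0.225), while KRT18 lay between 14.04 and 14.72 on all arrays. COL3A1, a fibrillar collagen chain, was 10.94 and 11.11 in LM2, 10.04 in LM1, and 6.98 and 8.98 in SN12C, with a spread between the SN12C arrays near that of CRIP1. CRIP1, CRIP2, KRT19 and COL3A1 were all lower on SN12C replicate 1 than on replicate 2. So were CSRP1, KRT18, both CSRP2 probe sets and the second PXN probe set, while TGFB1I1, FHL2 and the leading PXN probe set were not. The share of all tested genes lower on replicate 1 was not counted.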
